A study of Mus musculus with 10 samples.

Results

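Neural microexons are the very short exons that neurons splice into their messages, and every member of a list of them deposited by the study's authors was followed here through both of its experiments. Membership came from the list's event IDs alone. The list also holds inclusion levels from the first experiment, and whether these had a part in choosing its members is not known here. The authors place an ACTAAY motif upstream of 27 members, downstream of 15 and at neither side of 184. The members lie in 202 genes, 23 of which hold more than 1. The splicing table has 192593 exon events and 3652 microexons of 3 to 27 nt, of which 3426 are not on the list. Members were compared by motif side and by exon length. The authors' class of each exon by its response to Qk was not used.

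The first experiment used N2A cells, a mouse neuroblastoma line. They received 40 nM of a pool of siRNAs against Qk (siQk, n = 3) or of a non-targeting pool (siNT, n = 3), with 100000 cells seeded per well, and RNA was taken 72 h after transfection. The second used glutamatergic neurons differentiated in culture from mouse embryonic stem cells, with 2 untreated samples and 2 exposed on day 7 to cycloheximide at 100 uM over 12 h. Polyadenylated RNA was sequenced from all 10 samples, which the labels call biological replicates without saying more of their cultures, so the p-values measure the spread between these samples. N2A cells are 1 tumour line, and the labels do not give the share of neurons in the differentiated cultures.

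Microexons add or remove a few amino acids, mostly without shifting the reading frame, and often at the surface of proteins that act in synapses, the cytoskeleton and vesicle traffic. In neurons the related splicing activators Srrm3 and Srrm4 promote their inclusion. Quaking, the product of Qk, is an RNA-binding protein that recognises ACUAAY (Y is C or U), and in many exons studied elsewhere binding upstream of an exon goes with its skipping and binding downstream with its inclusion. Cycloheximide stops translation and with it nonsense-mediated decay, so that isoforms normally removed by decay can become visible.

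Member lengths had a median of 18 nt. A length that is a multiple of 3, which keeps the reading frame, was found in 188 members (83.2%) and not in 38. Among the tested members 144 of 172 (83.7%) kept the frame, against 161 of the 238 other microexons tested (67.7%). The exact ends were annotated as coding in GENCODE M21 for 161 members and were not annotated for 45. None of those 45 is in the neuron table, which held 169 members and lacked 57.

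The exons on which the results turn are shown here from the GENCODE M21 transcripts (mm10), 5′ to 3′ on the strand of the gene. Capitals mark the microexon, and the lower case marks 12 bases of the exon on each side, because the introns were not used here. The first set holds the members with an upstream motif that rose after Qk knockdown and have annotated ends. The liprin-alpha exons of Ppfia1 and Ppfia3 share 18 of 27 bases (66.7%).

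Ppfia1, 27 nt, chr7:144488691-144488717, minus strand: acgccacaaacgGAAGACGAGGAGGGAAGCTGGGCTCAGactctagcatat
Ppfia3, 27 nt, chr7:45343553-45343579, minus strand: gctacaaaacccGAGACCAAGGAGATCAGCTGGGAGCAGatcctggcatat
Atp2c1, 12 nt, chr9:105493543-105493554, minus strand: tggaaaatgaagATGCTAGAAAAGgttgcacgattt
Sh3glb2, 12 nt, chr2:30349226-30349237, minus strand: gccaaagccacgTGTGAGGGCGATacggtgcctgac
Cacnb1, 20 nt, chr11:98010627-98010646, minus strand: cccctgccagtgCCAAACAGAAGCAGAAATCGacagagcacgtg
Col4a1, 17 nt, chr8:11204536-11204552, minus strand: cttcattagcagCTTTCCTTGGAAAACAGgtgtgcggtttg

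The next set comes from genes of chromatin and transcription, whose exons were among those with the largest differences under cycloheximide. The exons of the paralogs Phf21a and Phf21b share 17 of 23 bases (73.9%).

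Phf21a, 23 nt, chr2:92351609-92351631, plus strand: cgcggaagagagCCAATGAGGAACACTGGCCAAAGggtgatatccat
Phf21b, 23 nt, chr15:84793896-84793918, minus strand: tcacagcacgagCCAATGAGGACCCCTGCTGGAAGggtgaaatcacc
Mef2a, 24 nt, chr7:67244521-67244544, minus strand: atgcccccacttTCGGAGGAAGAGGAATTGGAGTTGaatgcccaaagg
Trrap, 21 nt, chr5:144810332-144810352, plus strand: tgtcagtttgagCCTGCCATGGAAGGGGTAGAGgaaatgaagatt
Med23, 18 nt, chr10:24883204-24883221, plus strand: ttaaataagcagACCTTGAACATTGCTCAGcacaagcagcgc

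The last set shows paralogs, or exons of 1 gene, whose members took different levels in the same cells. The Cpeb2 and Cpeb4 exons share 21 of 24 bases (87.5%), and those of the catenins Ctnnd1 and Arvcf share 12 of 18 (66.7%).

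Cpeb2, 24 nt, chr5:43268869-43268892, plus strand: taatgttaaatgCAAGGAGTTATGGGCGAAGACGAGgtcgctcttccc
Cpeb4, 24 nt, chr11:31918801-31918824, plus strand: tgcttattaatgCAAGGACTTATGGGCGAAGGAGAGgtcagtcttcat
Ctnnd1, 18 nt, chr2:84612532-84612549, minus strand: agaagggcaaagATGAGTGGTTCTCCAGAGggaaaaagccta
Arvcf, 18 nt, chr16:18400781-18400798, plus strand: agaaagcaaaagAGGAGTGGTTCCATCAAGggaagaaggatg
Dctn1, 15 nt, chr6:83197319-83197333, plus strand: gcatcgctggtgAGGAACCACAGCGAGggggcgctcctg
Dctn1, 21 nt, chr6:83187764-83187784, plus strand: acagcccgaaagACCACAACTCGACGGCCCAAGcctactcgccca

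At least 10 reads in each N2A sample were found for 221 members and fewer for 5, beside 1831 of the 3426 other microexons with at least 10. Of the 221, 19 had a mean percent spliced in (PSI, the part of a gene's transcripts with the exon) under 2 and 30 had one over 98, which left 172 for the test. The lowest read number of a tested member had a median of 84. Median reads per tested member ran from 86 in siQk sample 2 to 277 in siNT sample 3, while exon-event reads per sample ran from 26595944 to 80481173, lowest and highest in siQk samples 2 and 3. The part of depth in the results was not tested. The junction coverage of Qk was 90.8, 82.8 and 82.5 CPM in siNT and 8.18, 12.3 and 13.0 CPM in siQk (log2 fold change -2.91, SE 0.16, limma adjusted p = 0.000483). Bulk RNA cannot tell fewer cells with a transcript from less transcript per cell. Of 10 neuronal markers 9 were in the N2A table and 7 reached 1 CPM, with a summed level of 1220 to 1303 CPM in siNT and 1416 to 1450 CPM in siQk. Of these 7, Chga, Stmn2 and Map2 were higher in each siQk sample than in any siNT sample, Elavl3, Snap25 and Syp were lower and Elavl4 overlapped. The glutamatergic markers summed to at most 0.435 CPM there, with Slc17a6 at 0. The astrocyte, oligodendrocyte and pluripotency markers summed to at most 0.217, 4.96 and 0.0592 CPM, with Aqp4, Mog and Pou5f1 at 0, and the microglial and immune markers to at most 0.0621 CPM. Endothelial markers summed to 5.48 to 8.95 CPM in siNT and 9.66 to 13.5 CPM in siQk, and fibroblast markers to 7.57 to 11.6 and 4.0 to 4.77 CPM, and in each of these lists 1 gene, Pecam1 and Pdgfrb, gave most of the sum. Their part in the results was not tested. The neuron table holds no gene levels, so the identity of the neurons could not be checked.

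Control N2A cells already included much of the list. Over the 221 members with reads, the median PSI was 50.3%, 52.8% and 49.6% in siNT samples 1 to 3. It was 64.9%, 61.3% and 61.2% in siQk samples 1 to 3, above every siNT sample. In siNT 46 members were included at under 10%, 116 between 10% and 90% and 59 at over 90%, and in siQk these numbers were 38, 110 and 73.

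Qk knockdown raised the inclusion of 19 of the 172 tested members (11.0%) and lowered none. The test was limma on log2-transformed ratios of inclusion and exclusion reads, and calls had an adjusted p under 0.05 over all 12930 tested exons and mean levels 10 or more points apart. Over all cassette exons 1.18% were called (0.75% upward and 0.425% downward), and of the 238 other microexons 11 were called (4.62%), 6 upward and 5 downward. The authors may have drawn the list with these same samples, so its higher share is no independent evidence. An unadjusted p under 0.05 was found for 71 members. The median difference of mean PSI was 5.28 points over the tested members (quartiles 1.02 and 12.4), with 138 of 172 higher in siQk, beside 0.70 points over the other microexons and 0.04 points over all cassette exons. With no filter on PSI it was 3.03 points over 221 members, of which 169 were higher. In 75 tested members every siQk sample lay above every siNT sample and in 8 every one lay below, where all cassette exons gave 7.95% and 6.64%. Leaving out siNT 1, 2 or 3 gave 13, 9 and 8 called members, and leaving out siQk 1, 2 or 3 gave 19, 11 and 10, all upward. With limma on PSI in place of the reads 12 of the 19 were called, without Ap1b1, Arvcf, Bin1, Col4a1, Dctn1, Ppp6r3 and Trrap.

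**Figure D1:**
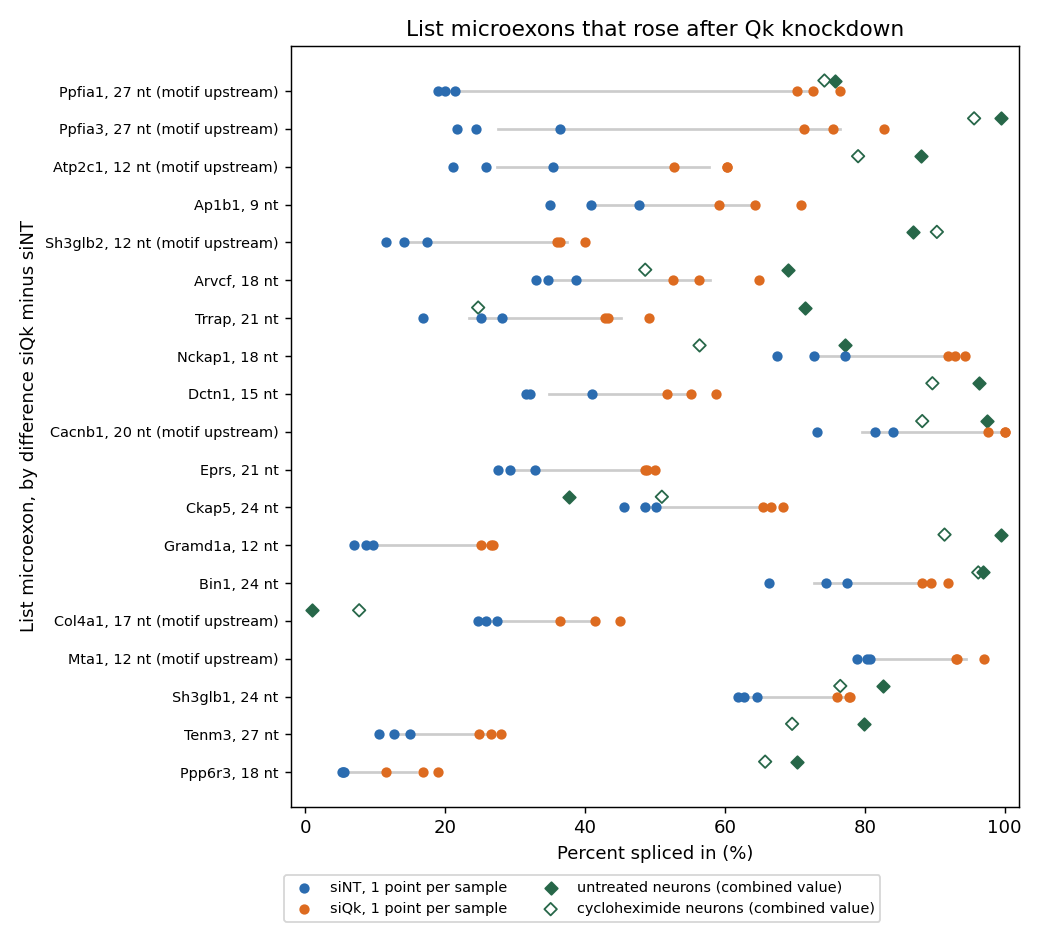
Percent spliced in (x axis) of the 19 list microexons that rose after Qk knockdown (y axis, ordered by the difference), with 1 point per N2A sample (blue siNT, orange siQk), a grey line between the group means and green diamonds for the combined neuron values where the exon is in that table. In all 19 the siQk points lie to the right of the siNT points, from 52.98 points of difference in Ppfia1 to 10.4 points in Ppp6r3.

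Genes of adhesion and the synapse held 20 members, of which 15 were tested and 4 rose, with a median difference of 9.60 points. The 27 nt exons of the liprin-alpha genes Ppfia1 and Ppfia3, which encode scaffold proteins of adhesion sites and presynaptic active zones, moved the most. Ppfia1 was at 21.5%, 18.9% and 19.9% in siNT and 76.4%, 70.3% and 72.6% in siQk. Its mean rose from 20.1% ± 1.28 to 73.1% ± 3.08 (SD, n = 3; adjusted p = 5e-05), a log2 change in the inclusion ratio of 3.42 (SE 0.23). Ppfia3 was at 36.5%, 24.5% and 21.8% in siNT and 75.4%, 82.7% and 71.4% in siQk (adjusted p = 0.0065), and its lowest read number was 31. In both, every siQk sample stood far above the highest siNT sample, and both calls held when any 1 sample was left out. Ppfia2, of the same family, has a member of 26 nt with a downstream motif, whose mean PSI was 90.1% in siNT and 93.8% in siQk (adjusted p = 0.781).

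The 18 nt exon of Arvcf, a catenin that binds cadherins, was at 38.8%, 33% and 34.8% in siNT and 64.9%, 52.6% and 56.2% in siQk (adjusted p = 0.0357). The 27 nt exon of Tenm3, which encodes the adhesion receptor teneurin 3, was at 12.8%, 10.5% and 15% in siNT and 28%, 26.5% and 24.8% in siQk (adjusted p = 0.0355). In each gene the groups did not overlap, but the calls were lost without any 1 of the 6 samples (adjusted p from 0.0539 to 0.207 for Arvcf and from 0.0737 to 0.187 for Tenm3). Tenm3 has another list member of 21 nt, at 17.9%, 17.5% and 18.3% in siNT and 28.5%, 28.7% and 31.1% in siQk, which lay as high in siQk without passing the test (adjusted p = 0.0651). Agrn, which encodes the synapse organiser agrin, also has 2 members. Its 24 nt exon rose by less than 10 points, from 1.04% ± 0.434 to 7.83% ± 2.5 (adjusted p = 0.00965), while its 12 nt exon was at 49.1%, 48.2% and 58.3% in siNT and 13.1%, 63.9% and 53.4% in siQk and overlapped between groups, with siQk sample 1 the lowest (adjusted p = 0.849). Exons of 1 gene share transcripts and are not independent.

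Cytoskeletal genes held 29 members, 22 of them tested, and 3 rose, with a median difference of 5.48 points. The 18 nt exon of Nckap1, a subunit of the WAVE complex that drives actin branching, was at 77.2%, 67.5% and 72.7% in siNT and 93%, 91.9% and 94.4% in siQk (adjusted p = 0.00162). The 24 nt exon of Ckap5, a microtubule polymerase, was at 50.1%, 48.6% and 45.5% in siNT and 66.6%, 65.5% and 68.3% in siQk (adjusted p = 0.00705), and its call was lost without siNT 3 (adjusted p = 0.0532) or siQk 3 (adjusted p = 0.0533). Dctn1 encodes the largest subunit of dynactin, the partner of the dynein motor. Its 15 nt exon was at 41%, 32.1% and 31.6% in siNT and 51.8%, 55.2% and 58.8% in siQk (adjusted p = 0.0419), a call lost without siNT 2, siNT 3, siQk 2 or siQk 3 (adjusted p from 0.137 to 0.227). Its 21 nt exon stayed nearly skipped in the N2A cells, at 1.79% in siNT and 1.8% in siQk, and was not tested. The WAVE complex genes Abi1 and Abi2 also lay higher in siQk. Abi1 rose from 90.3% ± 1.04 to 97.1% ± 0.602 (adjusted p = 0.0271), under 10 points, and Abi2 did not pass the test at 22.1% in siNT and 38.5% in siQk (adjusted p = 0.0535). These exons were named after their values were seen, as were those of Tenm3 at 21 nt, Agrn, Dctn1 at 21 nt and Ppfia2.

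Of 22 members in genes of endocytosis and vesicle traffic, 17 were tested and 4 rose, with a median difference of 8.75 points. Endophilin B proteins bend membranes, and both of their genes held a member that rose. In Sh3glb2 the 12 nt exon was at 17.4%, 11.6% and 14.1% in siNT and 36.4%, 36.1% and 40.0% in siQk (adjusted p = 0.00232), while the 15 nt exon of the same gene was nearly always included, at 98.1% in siNT and 98.8% in siQk. In Sh3glb1 the 24 nt exon was at 64.6%, 61.9% and 62.8% in siNT and 76%, 77.8% and 77.8% in siQk (adjusted p = 0.00895), and its call was lost without siNT 2, siNT 3, siQk 2 or siQk 3 (adjusted p from 0.0548 to 0.0673). The 24 nt exon of Bin1, another membrane-bending protein, was at 77.5%, 74.5% and 66.3% in siNT and 88.2%, 91.9% and 89.5% in siQk (adjusted p = 0.00811), and its call was lost with limma on PSI (adjusted p = 0.0882, where the alternatives ran from 0.00533 to 0.0882). In these 3 exons each siQk value lay above each siNT value. Ap1b1, a subunit of the AP-1 clathrin adaptor, holds a 9 nt exon at 47.8%, 35% and 40.8% in siNT and 64.2%, 70.9% and 59.2% in siQk (adjusted p = 0.0344), a call lost without siNT 2, siNT 3, siQk 2 or siQk 3 (adjusted p from 0.0534 to 0.204). Its 21 nt exon has the motif upstream and was at 1.23% in siNT and 1.49% in siQk, too low to be tested.

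The list of channels and pumps gave 3 members, 2 of them tested, and both rose. It is not complete: the potassium channel gene Kcnn2 and the proton pump gene Atp6v0a1 also hold members and were left off. Atp2c1 encodes a calcium and manganese pump of the Golgi, and its 12 nt exon was at 35.4%, 21.1% and 25.9% in siNT and 60.3%, 60.2% and 52.8% in siQk (adjusted p = 0.0118). Its call was lost without siNT 2 (adjusted p = 0.0715), siNT 3 (adjusted p = 0.0624) or siQk 2 (adjusted p = 0.0548). Cacnb1, a beta subunit of voltage-gated calcium channels, has a 20 nt exon at 73.2%, 84% and 81.5% in siNT and 100%, 100% and 97.6% in siQk (adjusted p = 0.0184), with a lowest read number of 41. That call was lost without any 1 siNT sample (adjusted p from 0.0894 to 0.122). In both exons the siQk samples all lay above the siNT samples.

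The list of chromatin, transcription and RNA genes held 17 members, 13 of them tested, and 3 rose, with a median difference of 8.66 points. The list is not complete: Kdm1b, Ewsr1 and the tRNA synthetase gene Mars, described below and not called, were left off it. Mta1 belongs to a complex that removes acetyl groups from histones, and its 12 nt exon was at 80.3%, 80.7% and 78.9% in siNT and 97.1%, 93.2% and 93% in siQk (adjusted p = 0.00695). Trrap is a scaffold of histone acetyltransferase complexes, and its 21 nt exon was at 25.2%, 28.1% and 16.8% in siNT and 49.2%, 43.3% and 42.9% in siQk (adjusted p = 0.0424). This call was lost without any 1 of the 6 samples (adjusted p from 0.0726 to 0.164), although the groups did not overlap. Eprs, a tRNA synthetase for glutamate and proline, has a 21 nt exon at 32.9%, 27.6% and 29.3% in siNT and 50.0%, 48.6% and 48.9% in siQk (adjusted p = 0.00152) with at least 1101 reads in every sample.

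Among 23 members in kinase and GTPase signalling genes, 18 were tested and 1 rose, with a median difference of 3.80 points. It is the 18 nt exon of Ppp6r3, a regulatory subunit of protein phosphatase 6, at 5.45%, 5.56% and 5.25% in siNT and 11.6%, 19% and 16.8% in siQk (adjusted p = 0.0144). Its call was lost without any 1 of the samples other than siQk 1 (adjusted p from 0.0534 to 0.0891), and its difference fell under 10 points without siQk 2 (8.79) or siQk 3 (9.88). The 112 members in no list gave 85 tested and 2 that rose, with a median difference of 3.12 points. Gramd1a, which moves cholesterol at contacts of the endoplasmic reticulum, has a 12 nt exon at 8.72%, 9.66% and 6.94% in siNT and 26.8%, 26.5% and 25.1% in siQk (adjusted p = 0.0007). Col4a1, a chain of basement membrane collagen, has a 17 nt exon at 27.5%, 24.8% and 25.8% in siNT and 36.4%, 45.1% and 41.5% in siQk (adjusted p = 0.0473), whose call was lost without any 1 of the samples other than siQk 1 (adjusted p from 0.114 to 0.236). In all 3 genes the lowest siQk value exceeded the highest siNT value. These 6 lists of genes were written from general knowledge and not from the annotation, and they were chosen with earlier results of these data known. Some members that would fit a list were left off it. The counts by list are therefore no independent evidence, and the differences between lists were not tested.

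Among the tested members those with the motif upstream had the largest median difference, and none of those with it downstream passed the test. Of 17 tested members with an upstream motif 7 rose (Ppfia1, Ppfia3, Atp2c1, Sh3glb2, Cacnb1, Col4a1 and Mta1), 15 were higher in siQk and the median difference was 14.5 points (quartiles 4.34 and 19.6). That median was 7.91 points without siNT 2 and 7.73 points without siQk 3. Of 9 with a downstream motif 0 were called by limma, 7 were higher and the median was 3.72 points. Of 146 with no motif 12 rose, 116 were higher and the median was 4.81 points. With no filter on PSI the medians were 3.50 points over 26 upstream members, 0.533 points over 13 downstream and 3.09 points over 182 with no motif. The differences between these groups were not tested.

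**Figure D2:**
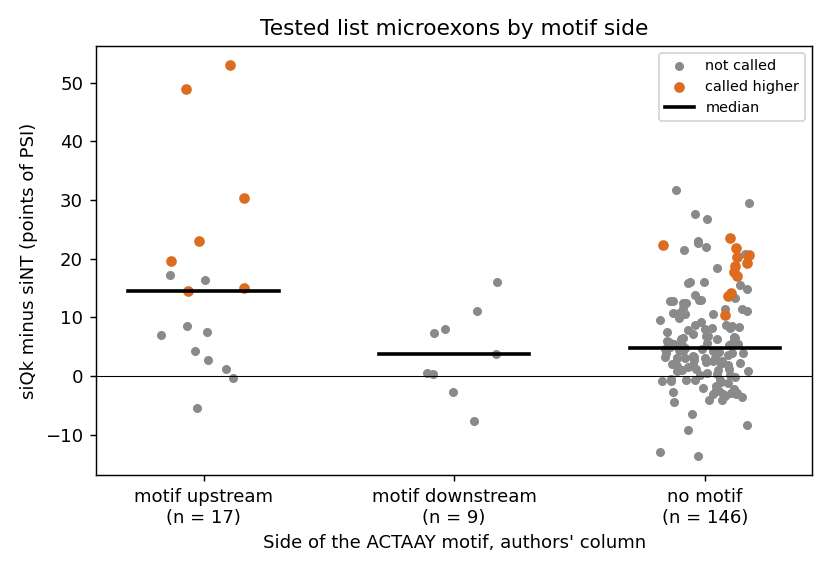
Difference of mean PSI, siQk minus siNT in points (y axis), of the 172 tested list microexons by the side of the ACTAAY motif in the authors' list (x axis), with 1 point per exon, called exons in orange and the median as a bar. The medians are 14.5, 3.72 and 4.81 points, and the upstream group reaches 52.98 points.

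Not every upstream member was higher after the knockdown. Upstream members that were tested and not called include Ewsr1, which encodes an RNA-binding protein and was lower in siQk (9.67%, 8.36% and 7.53% in siNT and 4.4%, 1.46% and 3.36% in siQk, adjusted p = 0.0788). Fam168a overlapped between groups, at 18.6%, 12.3% and 24.9% in siNT and 10.5%, 29.3% and 15.2% in siQk (adjusted p = 0.985). Ewsr1 was named after its value was seen. Another 10 upstream members were not tested: 5 were nearly always included in N2A cells, among them Phf21b (99.9% in siNT and 99.9% in siQk), 4 were nearly always skipped, among them the 21 nt exon of Ap1b1, and 1 had fewer than 10 reads in a sample. The skipped ones stayed skipped after Qk knockdown, as in the latrophilin gene Adgrl2 (0.153% in siNT and 0.877% in siQk), although untreated neurons had Adgrl2 at 49% and Ap1b1 at 90.6% by the authors' combined values. No change can be read from members at such limits.

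The downstream members with the largest differences went in both directions without passing the test. The 6 nt exon of Pacsin2, a membrane-bending protein, was at 49.5%, 43.3% and 40.5% in siNT and 67.3%, 57% and 56.9% in siQk (adjusted p = 0.0752), and the 3 siQk values lay above the 3 siNT values. Erc1, an active zone scaffold, was at 58.1% in siNT and 69.2% in siQk (adjusted p = 0.648), and Arhgap23 at 5.77% in siNT and 13.8% in siQk (adjusted p = 0.331). Med23, a subunit of the Mediator complex, was at 35.4% in siNT and 42.7% in siQk (adjusted p = 0.781). The 18 nt exon of Rapgef2, an exchange factor for Rap GTPases, was at 83.3%, 100% and 88% in siNT and 78.9%, 80.6% and 88.5% in siQk (adjusted p = 0.711), with the groups overlapping.

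Length and frame gave smaller contrasts. The numbers that rose were 1 of 32 tested members of 3 to 9 nt, 5 of 38 of 10 to 15 nt, 7 of 41 of 16 to 21 nt and 6 of 61 of 22 to 27 nt. Their median differences were 3.99, 6.72, 5.48 and 5.05 points. Members that keep the frame gave 17 of 144 (median 5.61 points) and the others 2 of 28 (median 3.11 points), the latter being Cacnb1 and Col4a1. In the other microexons the medians of the same length groups were 0.213, 3.59, 1.76 and -0.18 points.

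**Figure D3:**
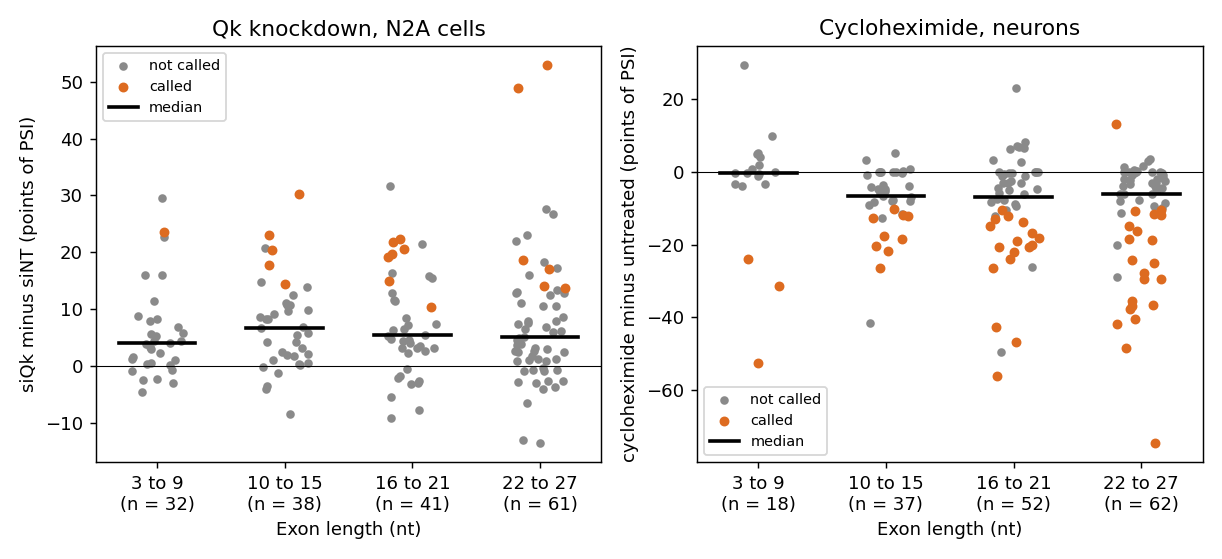
Differences of PSI in points (y axes) by exon length (x axes, nt) for tested list microexons in N2A cells, siQk minus siNT (left), and for those in the neuron table, cycloheximide minus untreated (right), with 1 point per exon, called exons in orange and medians as bars. The left medians run from 3.99 to 6.72 points, and the right ones from -0.242 points at 3 to 9 nt to -6.76 points at 16 to 21 nt.

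Of the 46 members of 9 nt or less, 35 have a length that is a multiple of 3. Besides Ap1b1, 4 of them rose by less than 10 points, of which 3 are described here. The 3 nt exon of Dctn2, the dynactin subunit dynamitin, was at 87.2%, 88% and 85.5% in siNT and 96.5%, 94.2% and 95% in siQk (adjusted p = 0.00701). Unc13a, which primes synaptic vesicles, has a 6 nt exon at 82.2%, 86.1% and 87% in siNT and 93.7%, 93.8% and 94.1% in siQk (adjusted p = 0.0097). Apbb1, an adaptor that binds the amyloid precursor protein, has a 4 nt exon whose mean went from 95.4% ± 0.352 to 98.4% ± 0.142 (adjusted p = 0.0263). Apbb1 did not pass without any 1 of the samples other than siQk 1 (limma adjusted p from 0.0632 to 0.142). With limma on PSI it did not pass either (adjusted p = 0.456). In these 3 the groups did not overlap. Larger differences that did not pass the test were those of the 3 nt exons of Tbc1d4, a Rab GTPase-activating protein (27%, 26.1% and 45.1% in siNT and 55.3%, 61.3% and 70.1% in siQk, adjusted p = 0.0978), and Mon2 (40.3%, 41.1% and 42.3% in siNT and 53.6%, 58.3% and 59.5% in siQk, adjusted p = 0.0737). The 9 nt exon of Phc1, a Polycomb protein, was at 18.5%, 17.8% and 9.67% in siNT and 55.8%, 32.9% and 25.4% in siQk (adjusted p = 0.366) with as few as 19 reads.

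Several of the shortest members sat at a limit in N2A cells. Inclusion was 0 in all 6 samples for the 8 nt exon of Itsn1 and the 9 nt exon of Kcnn2, and 100% in all 6 for the 6 nt exon of Nadk, which had at least 14 reads. Of the others at a limit, Myh9 was under 1% and the 9 nt exons of Fry and Emc1 over 99% in the mean of both groups. Paxip1 was at 28.1% in siNT and 25% in siQk, Snrnp48 at 18.8% in siNT and 26.7% in siQk and the 6 nt exon of Snap91, which encodes a clathrin assembly protein, at 71% in siNT and 82.5% in siQk (adjusted p = 0.887, 0.76 and 0.0793). The 9 nt exon of Dctn2 was far less included than its 3 nt exon, at 5.23% in siNT and 7.45% in siQk.

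Many reads did not by themselves go with a call. Of the 5 tested members with the most reads, Eprs alone was called. The 6 nt exon of Psap, the precursor of the saposins, had at least 3021 reads in each sample and was at 43.7%, 44.4% and 43.3% in siNT and 46.5%, 46.8% and 48.2% in siQk (adjusted p = 0.586). The values of Mars, a tRNA synthetase for methionine, were 12% in siNT and 9.34% in siQk (adjusted p = 0.745), and those of Eef1d, a translation elongation factor subunit, 53.5% in siNT and 64.3% in siQk (adjusted p = 0.318). Clathrin heavy chain (Cltc) has a 21 nt exon at 5.58%, 4.7% and 4.8% in siNT and 1.29%, 3.00% and 1.97% in siQk (adjusted p = 0.087), lower in each siQk sample than in any siNT sample.

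The largest difference among members not called was that of the 21 nt exon of Kdm1b, a histone demethylase, which was named after its values were seen. It was at 16.9%, 26.1% and 11.9% in siNT and 49.3%, 46.9% and 53.8% in siQk (adjusted p = 0.0593), and its lowest read number was 30. In all, 31 of the 172 tested members were at least 15 points higher in siQk and none was 15 points lower. Of the 238 other microexons 18 were higher by as much and 4 lower. Of all 12930 cassette exons 210 (1.62%) were higher and 115 lower. The lowest differences were -13.6 points for Fbxo25 (49.7% in siNT and 36.1% in siQk, adjusted p = 0.187) and -13.1 points for the formin gene Diaph1 (97.6% in siNT and 84.6% in siQk, adjusted p = 0.0823), also named for their values.

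Most genes that hold a member did not pass the test on coverage. Summed junction reads per gene, a stand-in for expression, passed it in 16 of 201 host genes (7.96%, 6 up and 10 down, limma). Of all 10851 genes 4.21% passed (300 up and 157 down), and the difference between these shares was not tested. Among the 19 genes with a member that rose, Cacnb1 was higher (log2 fold change 0.53, limma adjusted p = 0.0286) and Col4a1 lower (log2 fold change -0.60, limma adjusted p = 0.00647). Of 32 listed regulators of microexons 28 were tested, and besides Qk only Ptbp2, a neural repressor of exons, passed, at 183 ± 10.6 CPM in siNT and 131 ± 2.64 CPM in siQk (SD, n = 3; limma adjusted p = 0.0154). Srrm4 was at 39.7 CPM in siNT and 28.5 CPM in siQk (limma adjusted p = 0.0899), and Srrm3 at 54.6 and 46.4 CPM (limma adjusted p = 0.397). The part of Ptbp2 in the splicing differences was not tested.

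Untreated neurons included much of the list more than siNT N2A cells did. The neuron values are the authors' combined PSI per condition, with no spread and unknown depth, made with another format of table than the N2A values. The levels are therefore set side by side without a test. Members are on the list as neural microexons, so more inclusion in neurons is no independent finding about them. The table does not label its conditions beyond its name, where control stands before cycloheximide, and that order was used for every neuron value here. Of the 165 members with reads in N2A cells and a neuron value, 91 lay at least 10 points higher in neurons, 25 at least 10 points lower and 49 within 10 points, with a median difference of 17.9 points. With the other condition taken as untreated, a choice made after seeing the data, these numbers were 76, 32 and 57 and the median 6.76 points. Over the 595 microexons with values in each experiment, 23% lay higher and 13.6% lower, and among the 430 outside the list 10.7% lay higher. Across the 165 members, Pearson's r between the levels was 0.525 and Spearman's rank correlation 0.524, as a description of exons that share the same libraries.

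The neurons held few skipped members. Among the 169 members with neuron values 11 were under 10%, 88 between 10% and 90% and 70 over 90%, and in the other condition 17, 98 and 54. Of the 30 members under 10% in siNT, 22 were between 10% and 90% in neurons and 5 over 90%. None of the 47 members over 90% in siNT was under 10% in neurons, but 16 lay between 10% and 90%.

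**Figure D4:**
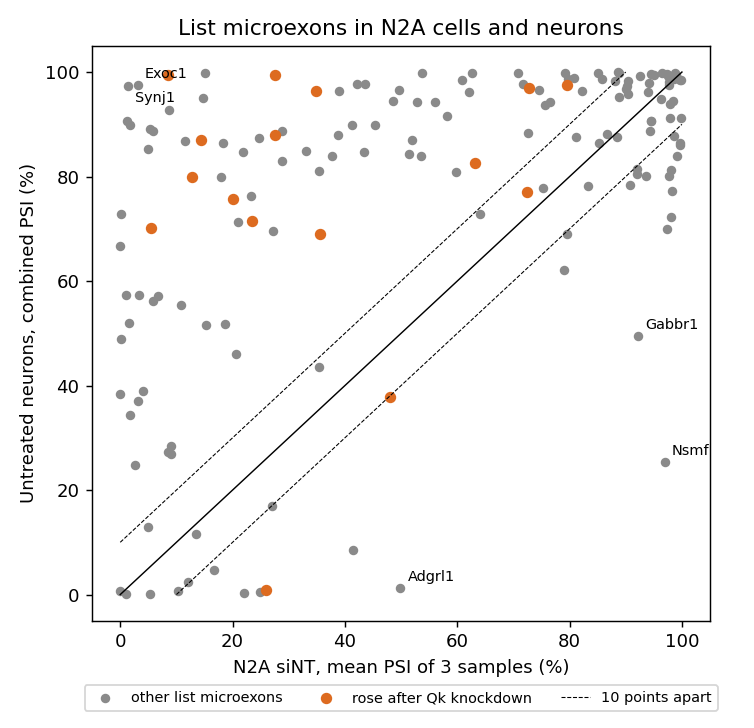
Percent spliced in of the 165 list microexons with values in both tables, as the mean of 3 siNT N2A samples (x axis) and the authors' combined value in untreated neurons (y axis), with the members that rose after Qk knockdown in orange and lines for equality and 10 points apart. Of these points, 91 lie above the upper dashed line and 25 below the lower one.

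The members with the largest excess in neurons act in vesicle traffic and the cytoskeleton or in no list. The 21 nt exon of Synj1, a lipid phosphatase that uncoats synaptic vesicles, was at 1.3% in siNT and 97.4% in untreated neurons. Exoc1, of the exocyst tether, went with 3.07% and 97.5%, and Gramd1a with 8.44% and 99.5%. The 21 nt exons of Ap1b1 (1.23% and 90.6%) and Dctn1 (1.79% and 89.8%) and the 18 nt exon of the microtubule plus-end protein gene Clasp2 (15.1% and 99.9%) followed. Of these 6, the exons of Synj1, Ap1b1 and Dctn1 were not tested in N2A cells and Gramd1a alone rose after Qk knockdown, while Exoc1 in siQk was at 1.03%.

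Some members went the other way. The 6 nt exon of Nsmf was at 96.9% in siNT, with as few as 14 reads, and at 25.3% in neurons. The latrophilin gene Adgrl1 was at 49.9% and 1.23%, and Gabbr1, a subunit of the GABA-B receptor, at 92.2% and 49.5%. The neuron level of Gabbr1 is uncertain. With cycloheximide it was 0.0878%, yet the probability of a difference in the authors' deposited table was only 0.515. Gnas, the stimulatory G protein alpha subunit, was at 41.4% and 8.6%. The 9 nt exon of Myo18a (97.3% and 69.9%) and the 15 nt exon of Sh3glb2 (98.1% and 72.4%) were also lower in neurons. The 6 nt exon of Taf1, a subunit of the general transcription factor TFIID, was at 10.3% in siNT, 15.6% in siQk and 0.735% in untreated neurons.

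Most members that rose after Qk knockdown were also included more in neurons than in siNT. Of the 16 that rose and are in the neuron table, 14 had a higher level in untreated neurons than in siNT, 13 of them by at least 10 points. Of all 165 members compared, 91 lay at least 10 points higher in neurons. In 12 of the 16 the siQk mean lay between the siNT mean and the neuron value, and in 4 it lay above the neuron value. Their median PSI was 27.5% in siNT, 57.8% in siQk and 81.3% in untreated neurons, and 75.4% in the other condition, where 14 also lay above siNT. In Ppfia1 the siQk mean of 73.1% came near the neuron value of 75.8%, while in Gramd1a 26.1% stood beside 99.5%. The exceptions were Col4a1 (41% in siQk and 0.959% in neurons) and Ckap5 (66.8% and 37.7%), whose neuron values lay below siNT. The siNT means behind the calls are also the baseline for the neurons, so low siNT values favour both outcomes. These counts are therefore no evidence of a link.

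Cycloheximide went with lower inclusion of the list. Of 169 members, 51 (30.2%) differed in the authors' deposited table by at least 10 points with a probability of at least 0.9, 50 of them lower with the drug and 1, Ckap5, higher. Over all 2455 exons listed there, 9.33% did so (7.13% lower and 2.2% higher). Exons outside the list gave 7.79%, and those outside it with an untreated PSI from 2 to 98 gave 15.8%. In that range 48 of the 128 members were called, beside 94 of the 383 other microexons that are in both tables. The median difference was -5.04 points over the members, of which 135 of 169 were lower, and -0.128 points over the 792 other microexons that are in both tables. With an untreated PSI from 2 to 98 these medians were -8.08 points over 128 members and -2.13 points over 383 other microexons. The median level of the members was 87.4% in untreated neurons and 78.98% with cycloheximide. The reverse order of the table's conditions would turn every direction here.

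**Figure D5:**
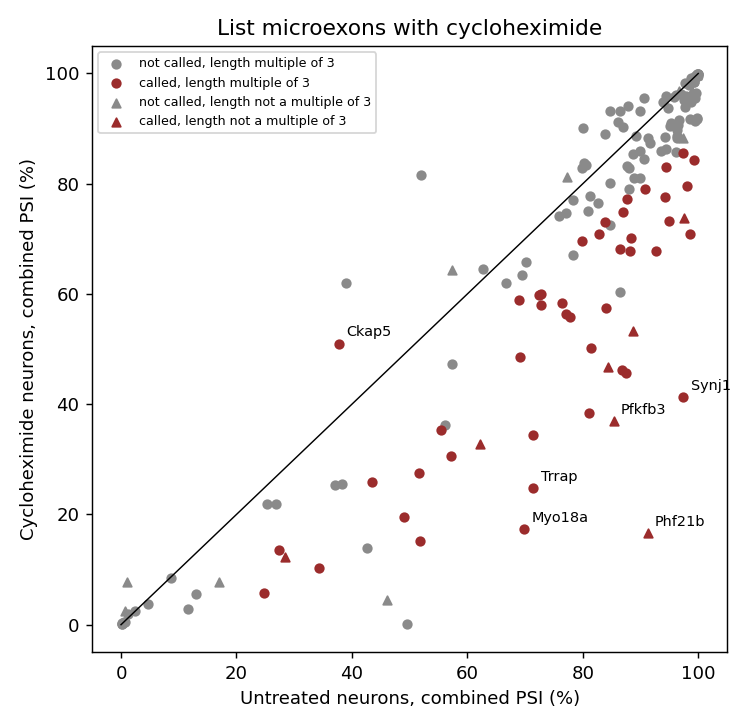
Percent spliced in of the 169 list microexons of the neuron table, untreated (x axis) and with cycloheximide (y axis), as the authors' combined values, with called exons in red, circles for lengths that are a multiple of 3 and triangles for the others. The line marks equality: 50 called exons lie below it and Ckap5 lies above.

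Among the lists, that of chromatin, transcription and RNA had the largest share of lower members, with 8 of 13 and a median of -17.6 points. The lists were written with earlier results known, so this ranking is no independent evidence. Ewsr1 and Baz2b, also called lower, and Mars, not called, were not on this list. Phf21a and Phf21b encode proteins of a histone demethylase complex. The 23 nt exon of Phf21b was at 91.2% in untreated neurons and 16.6% with cycloheximide, the largest difference in the list, while its N2A levels were 99.9% in siNT and 99.9% in siQk. The matching exon of Phf21a was at 62.1% in untreated neurons and 32.8% with cycloheximide and, in N2A cells, at 77.7%, 80.8% and 78.4% in siNT and 95.7%, 92.6% and 87.5% in siQk (adjusted p = 0.155). Trrap was at 71.4% in untreated neurons and 24.7% with cycloheximide, Med23 at 81.1% in untreated neurons and 38.5% with cycloheximide and Mef2a, a transcription factor of muscle and neurons, at 87.4% in untreated neurons and 45.6% with cycloheximide. The remaining 3, outside the rule for naming, were Mef2d, Cpeb4 and Zmynd8. The Phf21 exons are not a multiple of 3, so the isoforms with and without them differ in reading frame.

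Vesicle traffic genes gave 5 of 19 lower members and cytoskeletal genes 8 of 27. The 21 nt exon of Synj1 was at 97.4% in untreated neurons and 41.3% with cycloheximide, and its 24 nt exon, with an upstream motif and named after its values were seen, at 72.8% in untreated neurons and 58% with cycloheximide. The 9 nt exon of Myo18a was at 69.9% in untreated neurons and 17.3% with cycloheximide, with a probability of 0.909 in the authors' deposited table, near the limit for a call. Ckap5 was the exception among all called members, at 37.7% in untreated neurons and 51% with cycloheximide.

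Signalling and adhesion genes gave 7 of 20 and 6 of 19 lower members. The largest differences were those of Arhgap23 (88.6% in untreated neurons and 53.2% with cycloheximide), the 6 nt exon of Git2, a scaffold at focal adhesions (81.4% in untreated neurons and 50.1% with cycloheximide), and Adgrl2 (49% in untreated neurons and 19.6% with cycloheximide). Outside the lists, 16 of 68 members were lower. They include Pfkfb3, an enzyme that sets the level of an activator of glycolysis (85.3% in untreated neurons and 37% with cycloheximide), and Ipo11, a nuclear import receptor (86.8% in untreated neurons and 46.2% with cycloheximide). Mfsd6 was at 84.3% in untreated neurons and 46.8% with cycloheximide and Fam168a at 51.8% in untreated neurons and 15.1% with cycloheximide. None of the 3 members on the list of channels and pumps was called. Gabbr1 was at 49.5% in untreated neurons and 0.0878% with cycloheximide, but the probability in the authors' deposited table was 0.515 and it was not called.

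By frame, 43 of 152 members that keep it were lower and 1 higher (median -4.86 points), and 7 of 17 that shift it were lower (median -9.28 points). By length, 3 of 18 members of 3 to 9 nt were lower, 9 of 37 of 10 to 15 nt, 17 of 52 of 16 to 21 nt and 21 of 62 of 22 to 27 nt. Their medians were -0.242, -6.71, -6.76 and -6.03 points. Among the other microexons with a neuron value, 64 of 519 that keep the frame were lower and 13 higher (median -0.283 points). Of those that shift it, 15 of 273 were lower and 5 higher (median -0.022 points), so the contrast by frame ran the other way there. In the same length groups 10 of 91, 16 of 130, 17 of 169 and 36 of 402 of them were lower, and 1, 4, 5 and 8 higher. By motif, 7 of 22 members with it upstream, 4 of 12 with it downstream and 39 of 135 with none were lower. These contrasts were not tested, and the read depth behind them is unknown.

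The overlap of the calls lay near the share called among all members compared, and nothing is read from it. Of the 129 members tested in N2A cells and present in the neuron table, 16 rose after Qk knockdown and 40 were lower with cycloheximide (31.0%). Both applied to 4, the exons of Arvcf, Nckap1, Trrap and Tenm3 (27 nt), which is 25% of the former and 10.0% of the latter. Across the 129 members, Pearson's r between the differences was -0.00427 and Spearman's rank correlation -0.0960. Nckap1 was at 77.1% in untreated neurons and 56.4% with cycloheximide and Arvcf at 69.1% in untreated neurons and 48.6% with cycloheximide, whereas Ppfia1 was at 75.8% in untreated neurons and 74.2% with cycloheximide and Sh3glb2 (12 nt) at 87% in untreated neurons and 90.3% with cycloheximide.

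Alike exons of paralogs differed in level in some pairs and lay close in others. The Cpeb2 exon was included at 94.1% in siNT and 97.9% in untreated neurons, and that of Cpeb4 at 18.3% and 86.4%, although 87.5% of their bases are the same. These genes encode regulators of poly(A) tail length. Cpeb4 was lower with cycloheximide, at 68.1%, and Cpeb2 was at 95.9%. Ctnnd1, the p120 catenin, was at 99% in siNT and 98.1% in siQk, where its relative Arvcf rose from 35.5% to 57.9%. The 24 nt exons of Clasp1 and Clasp2, with 17 of 24 bases shared (70.8%), were at 74.5% and 70.8% in siNT and at 96.5% and 99.9% in neurons. The 15 nt exons of Vav2, a guanine nucleotide exchange factor, share 3 of 15 bases (20%) and had like levels in neurons, 88.2% and 88.4%, and with cycloheximide, 67.8% and 70.1%. These pairs were chosen after their values were seen.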

How the data were processed

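Splicing was measured by sequencing of stranded polyadenylated RNA libraries with long inserts, per the labels' protocols, in 6 N2A and 4 neuron samples. The authors deposited a percent spliced in per event and N2A sample, per the file headers in vast-tools format, with a quality text cell (another kind of value) that holds the inclusion and exclusion reads. They also deposited the list of members with PSI per group as a fraction and the motif side, whose search window the sources used here do not state. The authors deposited, for the neurons, PSI as a fraction and a probability per exon, replicates combined, with the difference and an entropy as a score, in Whippet format, and a filtered copy of it that was not needed. An aligner was not given in the sources used here, and the submitters' processing notes name mm10 as the build.

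Members and gene lists were chosen with earlier results of these data known. Members were matched by event ID and, in the neuron table (2469 rows for 2455 exons), by chromosome, start and end. Reads of exon events with at least 10 reads in every N2A sample and a mean PSI from 2 to 98 were fitted together: a two-sided robust limma test (version 3.58.1, R 4.3.3) with a variance trend, on log2((inclusion + 0.5)/(exclusion + 0.5)), Benjamini-Hochberg over 12930 exons. Coverage per gene was tested on log2(CPM + 0.5) by limma-trend for genes averaging 20 or more reads. A read can serve several events, PCR copies cannot be told apart, and fold changes on this scale understate low genes. The smallest p of an exact permutation test of 3 against 3 samples is 0.1, so none was used. The scripts were tested on simulated data. Within the siNT and siQk groups no sample copies another: pairs of samples varied 1.49 to 2.93 times as much as sampling alone gives. Pairs across the groups were not compared in this way, and the neuron samples, given only as combined values, could not be.

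The text names members that were called in N2A cells, the 5 largest differences per motif side, the 15 largest under cycloheximide, the 6 highest and lowest against neurons, the 5 with the most reads and those of 9 nt or less. Exons outside this rule are named as such, and some members that it covers are not reported here. Alternatives were leaving out each sample, a replicate block, other filters on reads and PSI, another pseudocount, limma on PSI and other call rules. Figures and tables used Python 3.11.15, pandas 2.3.3, numpy 2.4.6 and matplotlib 3.10.9, with version 1.17.8 of data.table and 1.5.0 of statmod.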

Additional observations from a re-analysis of the deposited data

How the results depend on the processing

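The number of list members called after Qk knockdown was 19. It ran from 8 to 19 when 1 sample was left out, and 8 of the 19 calls held in every such fit (Bin1, Eprs, Gramd1a, Mta1, Nckap1, Ppfia1, Ppfia3 and Sh3glb2). It was 31 when 15 points alone made a call, and from 18 to 26 under the other settings. With limma on PSI it was 26, of which 12 were among the 19, with 1 downward. The replicate block gave 20, with 18 of the 19 kept: Dctn1 was lost (adjusted p = 0.0546) and Pacsin2 (adjusted p = 0.00649), then the only called member with a downstream motif, and Tbc1d4 (adjusted p = 0.0381) were added. Samples with the same number had correlated deviations of 0.139, 0.0193 and 0.116, and siQk 2 correlated best with siNT 3, so the numbers were not taken to pair the samples.

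The median difference with an upstream motif was 14.5 points and ran from 7.73 to 14.6 when 1 sample was left out. With no filter on mean PSI it was 3.50 points, beside 3.09 with no motif and 0.533 with the motif downstream, because members at 0 or 100% enter. A rule of 20 points left 27 of the 51 cycloheximide calls. The count of members higher in neurons ran from 75 to 94, with 76 where the other condition was taken as untreated. A search for the motif in the introns was not run, because no genome was used here.

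Without 1 sample, the differences of some members that did not pass the test changed sign. They ran from -3.67 (without siQk 3) to 3.455 for Dmtn, which was -0.82 without siNT 1. Those of Fam168a ran from -5.77 to 3.63 (without siQk 1), with 2.87 without siNT 3 and 1.29 without siQk 3. Map4k4 ran from -0.647 (without siNT 1) to 0.858, with -0.202 without siQk 3, and Nav1 from -2.24 to 0.76 (without siNT 3), with 0.615 without siQk 1. Paxip1 ran from -7.87 to 3.28 (without siQk 1) and the 9 nt exon of Ptk2 from -0.148 (without siQk 2) to 0.462. Depth limits the N2A values most in siQk 2, and the depth of the neuron values is unknown.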
